A study of Mus musculus with 6 samples.

Results

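The 10 bile acid synthesis enzymes examined here are the liver enzymes that convert cholesterol into conjugated bile acids, and their mRNA was compared between WT and TRIM24 C52/55A knockin mice by RNA-Seq. They were chosen by gene name, as *Cyp7a1*, *Cyp8b1*, *Cyp27a1*, *Cyp39a1*, *Akr1d1*, *Hsd3b7*, *Amacr*, *Acox2*, *Slc27a5* and *Baat*, and are 10 of the 21528 genes listed in any library. All 10 were among the 12225 genes whose FPKM averaged 0.5 or more, which were tested. FPKM corrects the fragments of a gene for the length of its transcript and for the fragments in the library, which allows a rough comparison of levels between genes. Between livers, some differences still depended on how the libraries were scaled, as given below. Total RNA came from the whole liver of C57BL/6 mice (the knockin was made in C57Bl/6J in the study's methods), 3 WT and 3 TRIM24 C52/55A, 5 months old, and all 6 mice had eaten for 3 months a high-fat diet (HFD) in which fat gave 60% of calories. The knockin mice are homozygous for alanine in place of Cys52 and Cys55 in the RING domain of the endogenous TRIM24, the part of the protein that carries its E3-ligase activity, and the WT mice are littermates from matings of heterozygotes. The allele was edited in the germline with CRISPR/Cas9, so a change that starts in hepatocytes cannot be told apart from one that starts in another tissue. Each mouse gave 1 library and is named by its replicate number, as knockin mouse 2, and the number of founders is not given in the sources used here. The sex of the sequenced mice is not stated, while the study names male mice for other liver measurements at this age and diet.

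Bile acids are made in hepatocytes by a classic and an alternative route. The classic route starts in the endoplasmic reticulum with the 7-alpha-hydroxylation of cholesterol by CYP7A1, and the alternative route starts with oxidation of the side chain, mainly by CYP27A1 in mitochondria. The sterol ring is then modified, the side chain is activated and shortened in peroxisomes, and the product is joined to taurine or glycine before it is secreted into bile. Bile acids returning from the intestine repress the pathway through the nuclear receptor FXR (*Nr1h4*) and its target SHP (*Nr0b2*), and through a growth factor from the ileum that signals by FGFR4 and beta-klotho.

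The first group of enzymes are cytochromes P450, and the coding sequence around the cysteine that holds their haem shows what the 4 hydroxylases of the set share with CYP7B1, which is compared with them further on. The cysteine codon is in capitals, each stretch of 30 bases was the only match of its gene to a relaxed form of the P450 haem-binding signature, and the sequences are from GENCODE M21 transcripts on GRCm38.
Cyp7a1: tttggatcaggagctacaataTGTcctgga
Cyp7b1: tttggactcggaacaagcaaaTGTccaggg
Cyp8b1: tggggctcgggtgtttccaagTGCcccggc
Cyp27a1: ttcggctatggggttcggtctTGCctgggt
Cyp39a1: tttggaggcgggaagttccagTGTcctgga
These stretches lie at chr4:6268386-6268415 on the minus strand (exon 6 of 6 of *Cyp7a1*), chr3:18072634-18072663 on the minus strand (exon 6 of 6 of *Cyp7b1*), chr9:121914942-121914971 on the minus strand (the only exon of *Cyp8b1*), chr1:74737320-74737349 on the plus strand (exon 8 of 9 of *Cyp27a1*) and chr17:43731982-43732011 on the plus strand (exon 10 of 12 of *Cyp39a1*). The cysteine is encoded by TGT in *Cyp7a1*, *Cyp7b1* and *Cyp39a1* and by TGC in *Cyp8b1* and *Cyp27a1*.

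A second group acts in peroxisomes, where many enzymes are imported by a signal at the very end of the protein. The last 30 coding bases before the stop codon are shown for the 3 peroxisomal enzymes of the set, with the last 3 codons in capitals.
Amacr: gttgaaagtgataagctaaaaGCCAATCTC
Acox2: ccactgatgcaaagctggaaaCCCAAGCTG
Baat: catctccttccagatttgagcAGTCAGCTC
They lie at chr15:10995217-10995246 on the plus strand (exon 5 of 5 of *Amacr*), chr14:8225769-8225798 on the minus strand (exon 15 of 15 of *Acox2*) and chr4:49489823-49489852 on the minus strand (exon 4 of 4 of *Baat*). The third of the capital codons is CTC in *Amacr* and *Baat* and CTG in *Acox2*.

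In the WT liver the mRNAs of the pathway spanned a 34.3-fold range of mean FPKM. *Slc27a5* was the highest, followed by *Hsd3b7*, *Cyp8b1*, *Cyp27a1*, *Baat*, *Acox2*, *Akr1d1*, *Amacr*, *Cyp7a1* and *Cyp39a1*. The mRNA of *Cyp7a1*, whose enzyme limits the classic route, was thus the second lowest of the set. Neighbours in this order overlapped between libraries for *Hsd3b7* and *Cyp8b1*, *Cyp8b1* and *Cyp27a1*, *Acox2* and *Akr1d1*, and *Cyp7a1* and *Cyp39a1*, and every WT library of the higher gene exceeded every WT library of the lower gene for the other pairs of neighbours. In the TRIM24 C52/55A liver *Cyp8b1* came below *Cyp27a1* and *Akr1d1* below *Amacr*. All 3 TRIM24 C52/55A libraries had less *Cyp8b1* than the lowest *Cyp27a1* value of that genotype, whereas *Amacr* and *Akr1d1* overlapped.

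**Figure D1:**
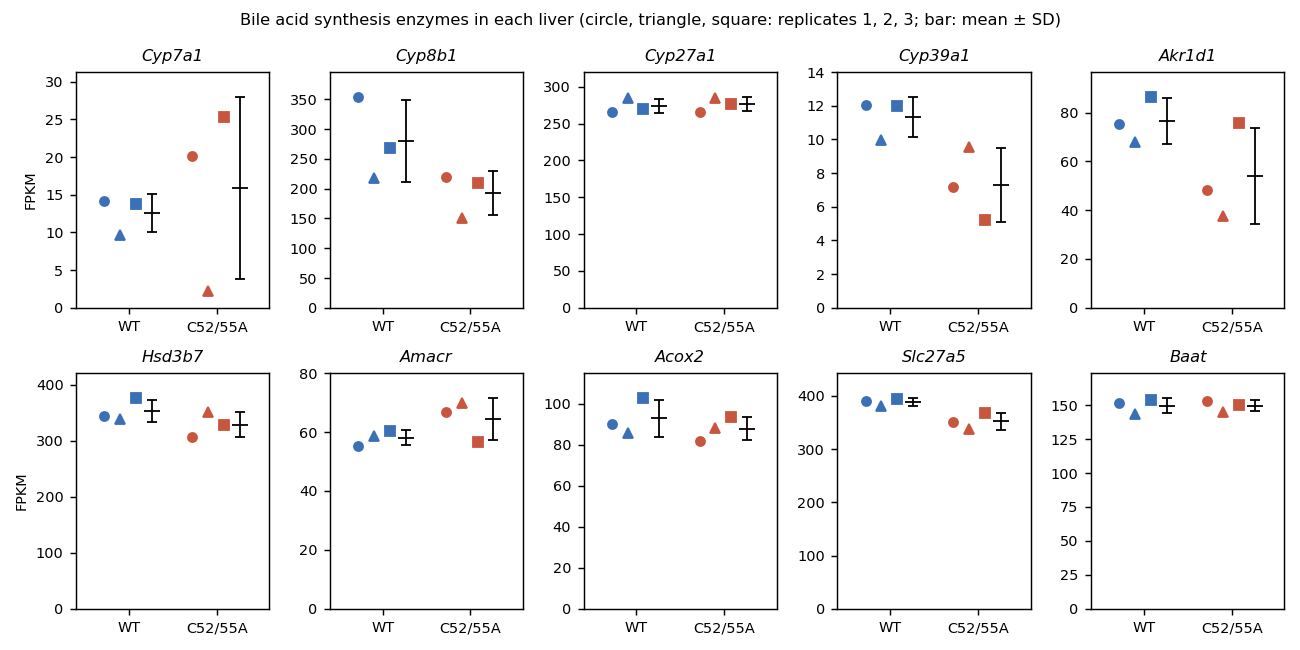
FPKM of the 10 enzymes in each of the 3 WT (blue) and 3 TRIM24 C52/55A (red) livers, with 1 symbol per mouse and a bar for the mean ± SD, on axes that start at 0. The groups overlap in 8 of the panels and not for *Cyp39a1* and *Slc27a5*, and *Cyp7a1* in the TRIM24 C52/55A livers shows the widest spread relative to its mean (coefficient of variation 75.9%).

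None of the 10 enzymes passed the test between genotypes (limma on log2(FPKM + 1), Benjamini-Hochberg adjustment over all 12225 genes, adjusted p under 0.05), where 7.72% of all genes tested did (1.64% higher and 6.09% lower in the knockin mice). Before adjustment, 3 of the 10 had a p-value under 0.05, *Cyp8b1*, *Cyp39a1* and *Akr1d1*, compared with 23.6% of all genes tested, and all 3 had lower means in the TRIM24 C52/55A liver. Such a p-value with a lower mean was seen in 19% of all genes tested. The groups did not overlap for 2 of the 10, *Cyp39a1* and *Slc27a5*, compared with 28.9% of all genes tested (22.5% in the direction of these 2, lower in the knockin). The median log2 fold change of the 10 enzymes was -0.12, and that of all genes tested was -0.08. With median-of-ratios scaling these medians were -0.02 and 0.01. These fold changes are on the log2(FPKM + 1) scale, which understates the change of genes of low FPKM, and p-values rest on the spread among 3 mice per genotype. In whole liver, fewer cells that express a gene and less RNA per cell cannot be told apart.

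**Figure D2:**
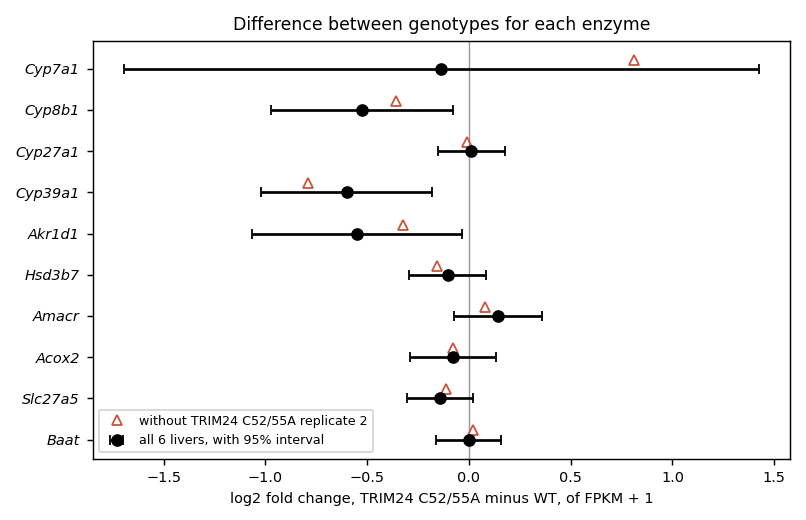
Log2 fold change of each enzyme (TRIM24 C52/55A minus WT, on log2(FPKM + 1)) from limma, as a black point with its 95% confidence interval for all 6 livers, and as a red triangle without knockin mouse 2. The interval of *Cyp7a1* runs from -1.69 to 1.42 and its triangle lies at 0.81, whereas the intervals of *Cyp27a1* and *Baat* stay within 0.18 of 0.

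*Cyp7a1* (chr4:6265612-6275633, minus strand) encodes cholesterol 7-alpha-hydroxylase, the rate-limiting enzyme of the classic route. It had 14.2, 9.65 and 13.8 FPKM in WT mice and 20.1, 2.28 and 25.3 FPKM in knockin mice 1 to 3. Knockin mice 1 and 3 were above every WT liver and mouse 2 was below every WT liver, so the 2 genotypes overlapped. The mean ± SD (n = 3 each) was 12.6 ± 2.53 FPKM for WT and 15.9 ± 12.1 FPKM for knockin mice, and the highest knockin value was 11.1 times the lowest, against 1.47 times in WT. The log2 fold change was -0.13 (standard error 0.68, limma adjusted p = 0.933), with a 95% confidence interval from -1.69 to 1.42. The sign differed between the scales, since the knockin mean was 1.26 times the WT mean in FPKM and below it on the log2 scale. This result turned on 1 library. Without knockin mouse 2 the log2 fold change was 0.81 and passed the test (limma adjusted p = 0.0336), in a fit in which 10.5% of all genes tested did. It was the only 1 of the 15 alternatives to the main settings to give such a call, and their adjusted p ranged from 0.0336 to 0.988.

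The library of knockin mouse 2 also stood apart in other genes. Of the 5 adipocyte markers listed, 4 were highest in it, *Adipoq* at 4.55, *Plin1* at 3.32, *Lep* at 3.98 and *Retn* at 1.59 FPKM, and these 4 were at 0 in the other knockin libraries and at most 0.127 FPKM in WT. The fifth, *Cfd*, went the other way, with every knockin liver below every WT liver (log2 fold change -1.61, limma adjusted p = 0.0617), and was called lower without knockin mouse 2 (-2.05, limma adjusted p = 0.0205). The 5 markers summed to between 3.25 and 8.62 FPKM in WT mice and to 0.112, 15.98 and 0.821 FPKM in knockin mice 1 to 3. *Nr0b2*, which encodes the repressor SHP, had 37.6, 42.9 and 27.8 FPKM in WT mice and 30.6, 70.2 and 27.8 FPKM in knockin mice 1 to 3. Its highest value of all was in the liver with the lowest *Cyp7a1*, and the genotypes overlapped (log2 fold change 0.14, standard error 0.32, limma adjusted p = 0.845). *Cyp7a1* is transcribed with a daily rhythm, and *Dbp*, a clock-driven activator of it, had 3.44, 4.63 and 7.04 FPKM in WT mice and 1.11, 0.653 and 6.18 FPKM in knockin mice 1 to 3. *Dbp* was thus low in knockin mouse 1, where *Cyp7a1* was high, as well as in mouse 2, where it was low. Of 14 clock genes tested, 2 passed the test (14.3%, against 7.72% of all genes tested), both lower in the TRIM24 C52/55A liver, *Per1* with a log2 fold change of -1.04 and *Ciart* with -0.70. Without knockin mouse 2, *Per1* was called and *Ciart* was not (limma adjusted p = 0.0296 and 0.0642). The 14 summed to between 110.3 and 122 FPKM in WT mice and between 90.5 and 124 FPKM in knockin mice. The part of adipose RNA, of *Nr0b2* or of the time of sampling in the *Cyp7a1* values was not tested.

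**Figure D3:**
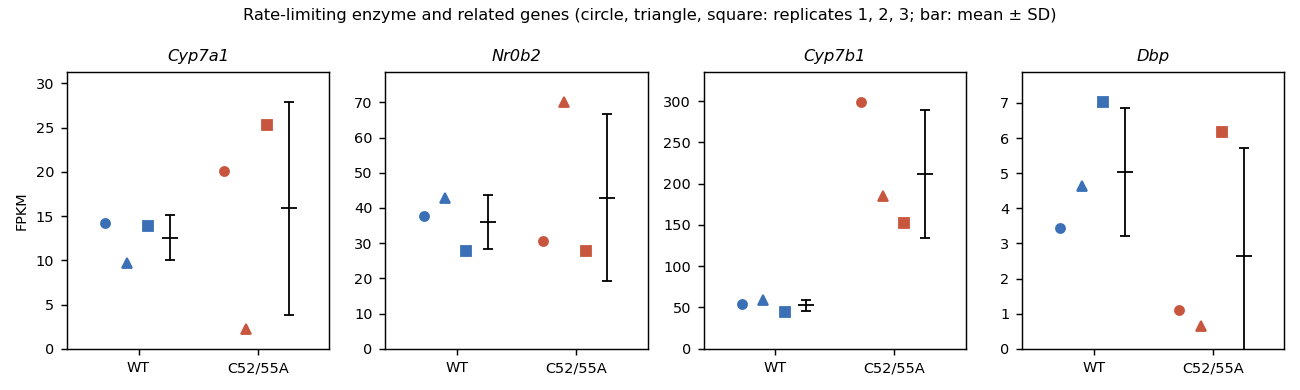
FPKM of *Cyp7a1*, the SHP gene *Nr0b2*, the oxysterol hydroxylase gene *Cyp7b1* and the clock output gene *Dbp* in each WT (blue) and TRIM24 C52/55A (red) liver, with the mean ± SD (n = 3; the lower end of the knockin bar of *Dbp* is cut at 0). Knockin mouse 2 (triangle) has the lowest *Cyp7a1* at 2.28 and the highest *Nr0b2* at 70.2 FPKM, and all 3 knockin livers exceed all 3 WT livers in *Cyp7b1*.

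*Cyp8b1* (chr9:121914356-121916305, minus strand, a gene of a single exon) encodes sterol 12-alpha-hydroxylase, the branch enzyme that sets how much cholic acid is made. It had 354, 218 and 269 FPKM in WT mice and 219, 151 and 209 FPKM in knockin mice 1 to 3. The highest value was in a WT liver and the lowest in a knockin liver, and the groups overlapped only through WT mouse 2 and knockin mouse 1, which were at 218 and 219 FPKM. The mean ± SD (n = 3 each) was 280.2 ± 68.5 FPKM for WT and 193 ± 36.9 FPKM for knockin mice. The log2 fold change was -0.52 (standard error 0.19, 95% confidence interval from -0.97 to -0.08), with an unadjusted p of 0.0264 and an adjusted p of 0.147 in limma. Over the 15 alternatives the log2 fold change lay between -0.69 and -0.32.

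The 250 bases before the start of *Cyp8b1* are shown because they hold letters like those bound by HNF4A and NR5A2, receptors that act on this gene and whose mRNAs were measured. The sequence is the RefSeq upstream window on GRCm38.p6, chr9:121916306-121916555 on the minus strand.
Cyp8b1 upstream: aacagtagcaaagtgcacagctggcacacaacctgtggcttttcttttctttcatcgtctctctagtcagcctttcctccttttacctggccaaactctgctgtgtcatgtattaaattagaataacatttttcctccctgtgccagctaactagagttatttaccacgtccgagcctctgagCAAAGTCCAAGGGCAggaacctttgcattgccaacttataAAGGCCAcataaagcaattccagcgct
The first capitals, from -67 to -53, are an HNF4-type CAAAGTCC directly followed by an NR5A2-type AAGGNCA, and the second, from -27 to -21, are another AAGGNCA. On either strand, CAAAGTCC was in 1.42% and AAGGNCA in 20.3% of 32851 RefSeq promoter windows, which run from 250 bases before to 50 after a gene's start. Of the 5 members with such a window, *Cyp8b1*, *Cyp27a1*, *Akr1d1*, *Hsd3b7* and *Acox2*, CAAAGTCC was in that of *Cyp8b1* alone, and AAGGNCA was in those of *Cyp8b1* and *Hsd3b7*. The nuclear receptor half-site AGGTCA, which AAGGNCA can contain and which was in 16.3% of windows, was in that of *Akr1d1*, and the DBP-type TTATGTAA, in 0.938% of windows, was in none of the 5. These are matches of letters, and binding was not measured. *Hnf4a* had 146, 147 and 151 FPKM in WT mice and 148, 158 and 149 FPKM in knockin mice 1 to 3 (log2 fold change 0.04, limma adjusted p = 0.798). *Nr5a2* had a log2 fold change of -0.13 (limma adjusted p = 0.525). The groups overlapped for both.

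*Cyp27a1* (chr1:74713574-74737892, plus strand), the mitochondrial sterol 27-hydroxylase, had 266, 285 and 270.2 FPKM in WT mice and 266, 285 and 277 FPKM in knockin mice 1 to 3. The values of the genotypes interleaved. The log2 fold change was 0.01 (standard error 0.07, limma adjusted p = 0.940), and its 95% confidence interval ran from -0.15 to 0.18. Its coefficient of variation was 3.70% among WT and 3.45% among TRIM24 C52/55A livers, against 20.1% and 75.9% for *Cyp7a1*.

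*Cyp39a1* (chr17:43667425-43751431, plus strand) encodes the oxysterol 7-alpha-hydroxylase that prefers 24-hydroxycholesterol. It had 12.03, 9.96 and 11.98 FPKM in WT mice and 7.15, 9.55 and 5.19 FPKM in knockin mice 1 to 3. Every WT liver was above every knockin liver, although WT mouse 2 and knockin mouse 2 were close. The mean ± SD (n = 3 each) was 11.3 ± 1.18 FPKM for WT and 7.29 ± 2.18 FPKM for knockin mice, and the log2 fold change was -0.60 (standard error 0.18, 95% confidence interval from -1.02 to -0.18, limma adjusted p = 0.0894). An exact permutation test of 3 against 3 gave its smallest possible two-sided p of 0.1. *Cyp39a1* was called only without knockin mouse 2, with a log2 fold change of -0.79 and a limma adjusted p of 0.0209 (0.0209 to 0.254 over the 15 alternatives). In that fit 10.5% of all genes tested were called.

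After hydroxylation, 2 enzymes of the set rework the sterol ring. *Hsd3b7* (chr7:127800604-127803802, plus strand), the C27 steroid oxidoreductase that acts just after 7-alpha-hydroxylation, had 345, 339.5 and 376 FPKM in WT mice and 307, 353 and 328 FPKM in knockin mice 1 to 3. The groups overlapped, and the log2 fold change was -0.11 (standard error 0.08, 95% confidence interval from -0.30 to 0.09, limma adjusted p = 0.505). The interval given for *Hsd3b7* in the deposited tables is 27.1 kb, against 3.2 kb in GENCODE, and takes in the coding genes *Setd1a* and *Gm49388*, and whether their reads entered its FPKM was not tested.

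*Akr1d1* (chr6:37530173-37568815, plus strand), the 5-beta-reductase that follows, had 75.3, 67.9 and 86.3 FPKM in WT mice and 48.4, 37.5 and 75.9 FPKM in knockin mice 1 to 3. Knockin mice 1 and 2 were below every WT liver, and mouse 3 was within the WT range. The mean ± SD (n = 3 each) was 76.5 ± 9.24 FPKM for WT and 53.9 ± 19.8 FPKM for knockin mice, and the log2 fold change was -0.55 (standard error 0.22, 95% confidence interval from -1.07 to -0.03, limma adjusted p = 0.185). Without knockin mouse 3 it was -0.82 and passed the test (limma adjusted p = 0.0165, against 0.0165 to 0.432 over the 15 alternatives), in a fit in which 6.42% of all genes tested did. *Akr1d1* ends 302.0 kb before *Trim24*, the edited gene, on the same strand of chromosome 6, with 0 annotated coding genes between them. *Trim24* itself had 5.54, 4.85 and 5.96 FPKM in WT mice and 6.15, 4.31 and 8.46 FPKM in knockin mice 1 to 3, with the groups overlapping (limma adjusted p = 0.713). Since the knockin exchanges codons 52 and 55 and leaves the rest of the gene in place, this level does not check the genotype of a library.

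For the 4 enzymes that activate, shorten and conjugate the side chain, the 95% confidence intervals of the log2 fold change stayed within 0.36 of 0. *Slc27a5* (chr7:12988346-12998192, minus strand) encodes bile acyl-CoA synthetase, and had 390.1, 380.1 and 395 FPKM in WT mice and 350.1, 338 and 369 FPKM in knockin mice 1 to 3. All 3 knockin livers were below all 3 WT livers. The log2 fold change was -0.14 (standard error 0.07, 95% confidence interval from -0.30 to 0.02, limma adjusted p = 0.279), and lay between -0.20 and -0.03 over the 15 alternatives. *Amacr* (chr15:10981756-10996626, plus strand), the racemase that prepares the side chain for oxidation, had 55.4, 58.6 and 60.2 FPKM in WT mice and 66.9, 69.9 and 56.5 FPKM in knockin mice 1 to 3. Knockin mice 1 and 2 were above every WT liver and mouse 3 was within the WT range (log2 fold change 0.14, standard error 0.09, limma adjusted p = 0.422).

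*Acox2* (chr14:8225511-8259353, minus strand), the peroxisomal oxidase of branched side chains, had 90.2, 85.6 and 103 FPKM in WT mice and 82.0, 88.2 and 93.4 FPKM in knockin mice 1 to 3. The groups overlapped, and the log2 fold change of -0.08 (standard error 0.09, limma adjusted p = 0.676) became 0.03 with median-of-ratios scaling and 0.09 with quantile normalization. *Baat* (chr4:49489422-49506557, minus strand), which joins bile acids to taurine or glycine, had 151, 143 and 154 FPKM in WT mice and 153, 145 and 150.3 FPKM in knockin mice 1 to 3. The values interleaved, the log2 fold change was 0.00 (standard error 0.07, limma adjusted p = 0.999), and its 95% confidence interval ran from -0.16 to 0.16.

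The balance of the routes was described with ratios of FPKM within each library, which a scaling by 1 factor per library leaves as they are. *Cyp8b1* to *Cyp7a1* was 24.9, 22.6 and 19.5 in WT mice and 10.9, 66.2 and 8.29 in knockin mice 1 to 3. Knockin mice 1 and 3 were below every WT liver and mouse 2 was above every WT liver. *Cyp27a1* to *Cyp7a1* was 18.7, 29.5 and 19.5 in WT mice and 13.2, 125 and 10.97 in knockin mice 1 to 3, and here too knockin mice 1 and 3 were below and mouse 2 above every WT liver. The log2 ratios differed between genotypes by -0.29 for *Cyp8b1* and by 0.25 for *Cyp27a1* (exact permutation tests, two-sided p = 0.9 and 1.0, n = 3 each, both 1.0 after Benjamini-Hochberg adjustment over the 4 exact tests made of ratios and of the sum). Without knockin mouse 2 these differences were -1.22 and -0.87, and a permutation of 2 mice against 3 cannot reach the threshold.

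**Figure D4:**
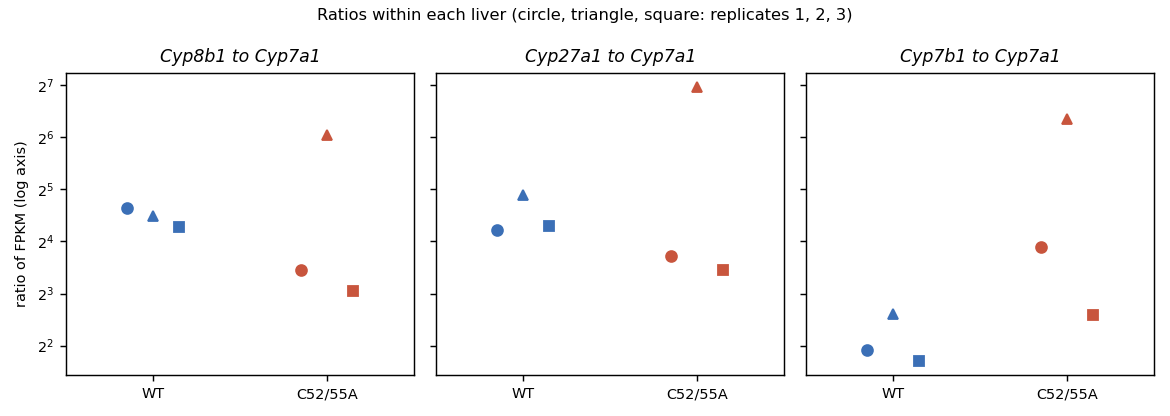
Ratio of FPKM to *Cyp7a1* within each liver, on a log axis of base 2, for *Cyp8b1*, *Cyp27a1* and *Cyp7b1*, with 1 symbol per mouse (WT blue, TRIM24 C52/55A red). Replicate 2 of the knockin mice (triangle) lies highest in each panel, at 66.2, 125 and 81.1, and the other knockin livers lie below the WT livers for *Cyp8b1* and *Cyp27a1*.

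The summed FPKM of the 10 enzymes was 1754, 1598 and 1739.6 in WT mice and 1520.4, 1479 and 1589 in knockin mice 1 to 3. All 3 knockin livers were below all 3 WT livers, by 167 FPKM in the mean (1697 ± 86.1 for WT and 1529.8 ± 55.6 for knockin mice, SD, n = 3 each). The two-sided exact permutation test gave p = 0.1, which 3 mice against 3 cannot go below, and 0.4 after adjustment over the 4 exact tests. The difference depended on the scaling of the libraries, and was -50.0 FPKM with median-of-ratios scaling and -1.10 FPKM with quantile normalization. Abundant genes weigh most in the sum. The WT and knockin means were 280.2 and 193 FPKM for *Cyp8b1* and 388 and 352 FPKM for *Slc27a5*, whereas *Cyp7a1*, *Cyp27a1* and *Amacr* had higher means in knockin mice.

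Of 25 other genes listed with bile acid synthesis, 24 were tested and *Ch25h* was below 0.5 FPKM. The list takes in genes that serve peroxisomes at large, such as the import receptor gene *Pex5*. Like the lists of regulators, transporters and markers, it was chosen with earlier results of these data known. Its share called is thus a description and not a test of the list. A total of 9 passed the test, 37.5% against 7.72% of all genes tested, of which 1 rose and 8 fell in the TRIM24 C52/55A liver, and this count was 4 without WT mouse 1 or 3 and 5 without knockin mouse 1. The median log2 fold change of the 24 was -0.10, and it was 0.00 with median-of-ratios scaling and 0.05 with quantile normalization. *Cyp7b1*, the oxysterol 7-alpha-hydroxylase that works after CYP27A1 in the alternative route, had 53.8, 58.7 and 45.0 FPKM in WT mice and 299.5, 185 and 152 FPKM in knockin mice 1 to 3. All 3 knockin livers were above all 3 WT livers. It rose from 52.5 ± 6.96 to 212 ± 77.5 FPKM (SD, n = 3 each), with a log2 fold change of 1.94 (standard error 0.23, limma adjusted p = 0.00319), and passed the test in each of the 15 alternatives. Against *Cyp7a1* in the same liver, it was at 3.78, 6.08 and 3.26 times in WT and at 14.9, 81.1 and 6.01 times in knockin mice 1 to 3. The groups overlapped in this ratio through WT mouse 2 and knockin mouse 3 (log2 difference 2.20, exact permutation test, two-sided p = 0.2, n = 3 each, 0.4 after adjustment over the 4 exact tests). The difference was 1.17 without knockin mouse 2 and 3.04 without knockin mouse 3.

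Of the 8 that fell, *Acaa1b*, a peroxisomal thiolase gene, had 1359, 1156 and 1403 FPKM in WT mice and 574, 563 and 615 FPKM in knockin mice 1 to 3, with all knockin livers below the WT livers (log2 fold change -1.16, limma adjusted p = 0.000725). The log2 fold change was -0.57 for *Acaa1a*, its close copy, -0.50 for *Acot8*, a thioesterase gene, and -0.39 for *Hsd17b4*, the bifunctional enzyme that follows ACOX2, which passed in 15, 7 and 4 of the 15 alternatives. *Acnat2*, an acyltransferase gene near *Baat* on chromosome 4 and a close relative of it, fell by 1.06 (limma adjusted p = 0.0130), whereas its neighbour *Acnat1* had a log2 fold change of 0.13 (limma adjusted p = 0.662), and the quantification can split reads between such copies. The other 3 that fell were the mitochondrial dehydrogenase gene *Hsd17b10* (-0.67), the cholesterol 24-hydroxylase gene *Cyp46a1* (-1.02) and *Pex5* (-0.35), the import receptor for the peroxisomal end signal, which is named after its values were seen. They passed in 9, 15 and 5 of the 15 alternatives. *Cyp2c70*, which makes the muricholic acids of mice, had a log2 fold change of 0.60 (limma adjusted p = 0.0788).

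**Figure D5:**
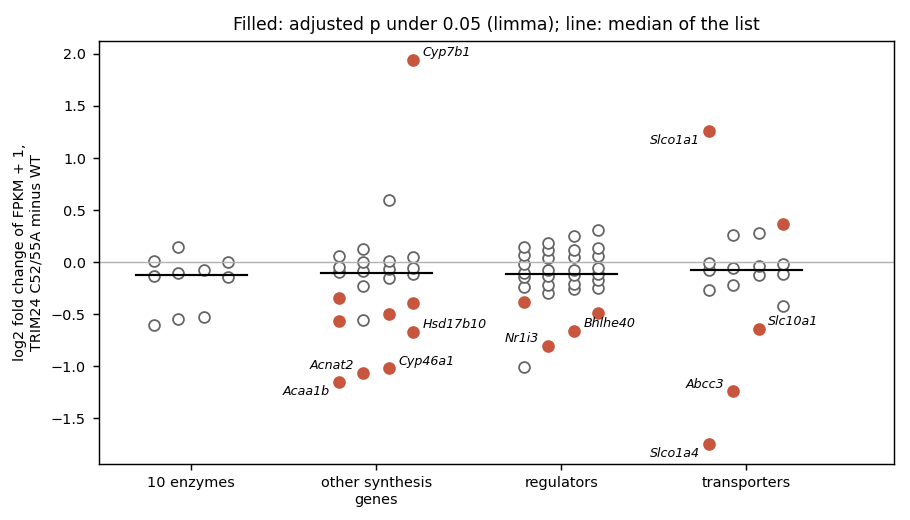
Log2 fold change (TRIM24 C52/55A minus WT, on log2(FPKM + 1)) of each tested gene among the 10 enzymes, the 24 other synthesis genes, the 32 regulators and the 17 transporters, with filled points for a limma adjusted p under 0.05 and a line at the median of each list. No point of the 10 enzymes is filled, and *Cyp7b1* at 1.94 is the highest of the other synthesis genes.

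Of 33 regulators of the pathway, 32 were tested and *Vdr* was below 0.5 FPKM. A total of 4 passed the test, 12.5% against 7.72% of all genes tested, and all 4 fell in the TRIM24 C52/55A liver, a count that was 0 without WT mouse 1, 2 without WT mouse 2 or 3 and 1 without knockin mouse 1. They included *Nr1i3*, which encodes the xenobiotic receptor CAR (log2 fold change -0.80), the clock-related repressor gene *Bhlhe40* (-0.66) and *Nr1h2*, which encodes the oxysterol receptor LXR-beta (-0.48). *Nr1i3*, *Bhlhe40* and *Nr1h2* passed in 13, 12 and 6 of the 15 alternatives. The bile acid receptor gene *Nr1h4* had a log2 fold change of -0.26 (limma adjusted p = 0.146), and the receptor genes of the ileal signal, *Fgfr4* and *Klb*, had -0.07 and -0.25 (limma adjusted p = 0.639 and 0.406). *Fgf15*, the ileal signal of mice, was not analysed here.

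Among 17 transporters tested, 5 passed the test (29.4%, against 7.72% of all genes tested; 2 without WT mouse 1 or 3 or knockin mouse 1, and 3 without knockin mouse 3), of which *Slc10a1*, which takes bile acids up from blood, *Abcc3* and *Slco1a4* fell (log2 fold changes -0.64, -1.24 and -1.75) and *Slco1a1* and *Abcg2* rose (1.26 and 0.36). Of the 15 alternatives, *Slc10a1* and *Abcc3* passed in 15, *Slco1a4* and *Slco1a1* in 9 and *Abcg2* in 6. *Abcb11*, the bile salt export pump, had a log2 fold change of 0.28 (limma adjusted p = 0.102). Without knockin mouse 2 the count was again 5, but *Abcb11* was called higher (0.36, limma adjusted p = 0.0287) and *Slco1a4* was not called (limma adjusted p = 0.0533).

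Hepatocytes carry out the pathway, and of 7 hepatocyte markers tested, 2 passed (28.6%, against 7.72% of all genes tested), *Cps1*, which rose (log2 fold change 0.63), and *Asgr1*, which fell (-0.31). They passed in 9 and 4 of the 15 alternatives, and without knockin mouse 2 *Asgr1* did not (limma adjusted p = 0.0695) but *Tat* was called lower (-0.81, limma adjusted p = 0.0357). Of 4 cholangiocyte, 6 Kupffer, 6 stellate and 5 endothelial markers tested, 1 passed in limma, the endothelial *Lyve1* (-1.26). Before adjustment, 3, 2, 3 and 1 of them had a limma p under 0.05, against 23.6% of all genes tested. The 3 cholangiocyte genes went both ways, with log2 fold changes of 0.54 for *Sox9*, -0.42 for *Epcam* and -0.58 for *Spp1*. So did the 3 stellate genes, with *Col1a1* (-0.62) and *Col1a2* (-0.54) below 0 and *Lrat* (0.31) above it, and the median of the 6 stellate markers was 0.08. The log2 fold changes of all 6 Kupffer markers were below 0, with a median of -0.22, against -0.08 for all genes tested. Without knockin mouse 2, the stellate *Col1a1* (-0.93) and *Col1a2* (-0.74) and the Kupffer gene *Cd68* (-0.39) were also called lower (limma adjusted p = 0.00854, 0.00770 and 0.0414). The 7 cholangiocyte markers listed summed to between 28.5 and 53.8 FPKM in WT mice and between 21.8 and 34.0 FPKM in knockin mice. *Cyp7a1* is known to be highest in hepatocytes near the central vein. Of 9 pericentral markers tested, 5 passed the test (55.6%, against 7.72% of all genes tested), all lower in the knockin liver, among them *Glul* (log2 fold change -1.06), *Oat* (-1.78) and *Cyp2e1* (-0.54). This list too was chosen with earlier results of these data known, so its share called is a description. *Cyp2e1* was not called without knockin mouse 2 (limma adjusted p = 0.0630). The log2 fold change was above 0 for 3 of the 9, among them *Rgn* (0.56, limma adjusted p = 0.145) and *Cyp1a2* (0.35, limma adjusted p = 0.253), and without knockin mouse 2 *Rgn* was called higher (0.79, limma adjusted p = 0.0189). Of 8 periportal markers tested, 2 passed (25.0%), *Cyp2f2*, which rose (0.66), and *Hsd17b13*, which fell (-0.44) but passed in 5 of the 15 alternatives. *Sds* was also called lower without knockin mouse 2 (-0.70, limma adjusted p = 0.0128). The pericentral list summed to between 4899.8 and 6269.5 FPKM in WT mice and between 3534 and 4822 FPKM in knockin mice, and *Cyp2e1* gave most of it, with a mean of 3416 FPKM in WT. The periportal list summed to between 3091 and 3163 FPKM in WT mice and between 3079 and 3383 FPKM in knockin mice, so the genotypes overlapped. The part of zonation in the values of the 10 enzymes was not tested.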

How the data were processed

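RNA-Seq was of total RNA from 6 mouse livers. For each liver the authors deposited a table of FPKM, already scaled to transcript length and library size. The submitters' processing notes name GRCm38, bcl2fastq, Salmon 0.14.0 and DESeq2 1.30.0 with no role, and the step that gave the FPKM is not given in the sources used here. Libraries were grouped by the genotype in their labels, tables were joined by gene identifier and a gene missing from a table was set to 0. The files hold no read totals: steps between low values put depth at 0.954 to 1.03 times that of WT replicate 1, and FPKM summed to 644619 to 648221 in WT and 673244 to 676791 in TRIM24 C52/55A libraries. No libraries were identical. Across genes, Spearman correlations of libraries ran from 0.976 to 0.988 in the same genotype and from 0.969 to 0.976 in different genotypes.

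Genes averaging 0.5 FPKM or more were fitted on log2(FPKM + 1) by limma 3.58.1 (lmFit, then eBayes with trend, R 4.3.3). P-values were adjusted by Benjamini-Hochberg over all of these genes, at a threshold of 0.05. The script was tested on simulated data. Ratios and the sum had exact two-sided permutation tests. Of 12225 genes, knockin livers had 200 called higher and 744 called lower (250 and 406 with median-of-ratios scaling). The members and the lists (other synthesis genes, regulators, transporters, and markers of cell types, zones and the clock) were chosen with earlier results of these data known. The text names all members, genes of the other lists past the threshold, at most 8 per list by size, some genes by role and at most 5 markers per type. A gene that this rule would name is not reported here. The 15 alternatives were a pseudocount of 0.1, no filter, a minimum mean of 1 FPKM, TPM, median-of-ratios and quantile scaling, no trend, robust moderation, the replicate block and each library left out. Coordinates are on GRCm38. Sequences came from GENCODE M21 and RefSeq (GRCm38.p6), and Python 3.11.15, pandas 2.3.3, numpy 2.4.6 and matplotlib 3.10.9 were used.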

Additional observations from a re-analysis of the deposited data

How the results depend on the processing

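Of 150 log2 fold changes (10 enzymes under 15 alternatives), 136 kept their sign and their side of the threshold, and 3 of the same sign passed it. These were *Cyp8b1* with the replicate block (-0.52, adjusted p = 0.0330 in limma), *Cyp39a1* without knockin mouse 2 (-0.79) and *Akr1d1* without knockin mouse 3 (-0.82). A further 11 turned their sign. With TPM, *Cyp27a1* was at -0.051 and *Baat* at -0.063. With median-of-ratios scaling *Acox2* was at 0.025, and with quantile normalization *Acox2* was at 0.095 and *Hsd3b7* at 0.018. With each library left out in turn, the range was -0.69 to 0.81 for *Cyp7a1*, -0.69 to -0.34 for *Cyp8b1*, -0.011 to 0.042 for *Cyp27a1*, -0.79 to -0.41 for *Cyp39a1*, -0.82 to -0.32 for *Akr1d1* and -0.030 to 0.022 for *Baat*, and the only library whose loss turned *Cyp7a1* was knockin mouse 2 (0.81).

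The count of genes called was 944, and 347 with no filter, 1546 with TPM, 578 with the replicate block and 294 to 1280 with 1 library left out (311, 475 and 300 when WT mice 1, 2 and 3 were left out, and 294 when knockin mouse 1 was). Of the 10 enzymes, 1 was called with the block and 0 to 2 with 1 library left out. Of other synthesis genes 4 were called with no filter and 4 to 8 with 1 library left out, of regulators 0 with no filter, 2 each with median-of-ratios scaling, quantile normalization and the block and 0 to 4 with 1 library left out, and of transporters 2 with no filter, 3 with robust moderation and 2 to 5 with 1 library left out. The difference in summed FPKM was -50.0 with median-of-ratios scaling and -1.10 with quantile normalization. The causes were not tested.

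Mice that share a number across genotypes are separate animals. Their deviations from the group means correlated at -0.12, -0.10 and 0.00, and 0 of 6 libraries correlated best with their own number. The values thus gave no sign that the replicate numbers pair the samples, but 3 mice per genotype are too few to exclude it. The depth of these libraries sets no counting interval, since FPKM keep no read totals, and 3 mice per genotype limit the precision.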
